A study of Mus musculus with 22 samples.

Results

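The 41 genes described here encode proteins that drive the cell cycle and copy DNA. They were taken as a fixed list of symbols from the gene table of a mouse lung RNA-seq study, which held 20938 genes, and each of the 41 was found there. Each also passed the filter on low values (at least 0.1 FPKM in at least 3 libraries), as did 15682 genes in all. FPKM is the number of fragments per kilobase of transcript, scaled to the size of the library. By role, 17 of the 41 act mainly at the entry into and during S phase, and 24 mainly in G2 and mitosis. The list was drawn up with earlier results of these data known.

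The study asked what allergen and airway constriction each do to gene expression in the lung. BALB/c mice, an inbred strain, received a sensitizing injection into the peritoneum at an age of 49 days and a booster at 63 days, also in the PBS groups. The sensitizing agent is not named in the labels. From 70 days of age they inhaled an aerosol of phosphate-buffered saline (PBS), of methacholine (MCh, a muscarinic agonist that narrows the airways) or of ovalbumin (OVA, an egg-white protein used as an allergen). Short means 1 challenge a day for 3 days, and long means 3 weekly challenges for 4 weeks. Each protocol held 3 PBS, 4 MCh and 4 OVA libraries of whole lung. The sample titles call the PBS and MCh animals normal mice and the OVA animals mice with allergic asthma. For the short MCh group the titles give 4 days where the treatment field gives 3. The series text speaks of trachea, but the samples are labelled as lung. The labels number the libraries as biological replicates and do not say more on litters or cages, so the p-values below measure the spread between these libraries.

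A cell that leaves the resting state passes through G1, copies its DNA in S phase, and divides in mitosis (M) after a second gap, G2. Many S phase genes are switched on by E2F transcription factors at the G1/S border. Many G2 and M genes are switched on later through promoters with CCAAT boxes, bound by NF-Y, and a short element called the cell cycle genes homology region (CHR), bound by the DREAM and MuvB complexes. In a healthy adult lung few cells divide. After allergen inhalation, lymphocytes, macrophages, epithelium, endothelium and fibroblasts can all enter the cycle, and RNA of whole lung does not tell which cells express a gene. In such RNA, more cells of a dividing type and more RNA per cell cannot be told apart.

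Promoters of 33 of the 41 members were present in the RefSeq promoter table used here (GRCm38.p6, which is mm10), each spanning 250 bases before to 50 bases after the start. The 8 members without an entry were Foxm1, Kif20a, Tpx2, Ccne2, Ccna2, Gins2, Aurkb and Mcm4. The windows were searched on both strands for the word CCAAT, for the CHR as the word TTTGAA or the variant TTTAAA, and for E2F sites as the word TTCCCGC, the word TTGGCGC, the word TTCGCGC or the word TTGCCGC. Of these, CCAAT was found in 75.76% of member promoters, against 42.64% of the 16561 symbols in the promoter table that are also in the gene table. A CHR word was found in 66.67% against 27.26%, and an E2F word in 33.33% against 14.23%. Among the 19 G2 and M members with a promoter, 17 held CCAAT, 17 held a CHR word and 3 held an E2F word. Among the 14 G1/S and S members, 8 held CCAAT, 5 a CHR word and 8 an E2F word. A word match is a description of these windows and not a measured binding site.

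Of these promoters, 5 are shown, because their genes are followed through the samples below: 3 of G2 and M genes (Cdk1, Ccnb1 and Ccnb2) and 2 of S phase genes (Mcm5 and Mcm6). Each runs 5′ to 3′ along the gene's own strand from 250 bases before to 30 bases after the RefSeq start, in GRCm38.p6. These starts can differ from the GENCODE gene positions given below. The Mcm5 and Mcm6 windows lie wholly before the GENCODE starts, that of Mcm5 being at 75109569. Capitals mark CCAAT, which reads as ATTGG when it lies on the other strand, CHR words and E2F words, some of which overlap. The windows are chr10:69352883-69353162 (minus strand, Cdk1), chr13:100786457-100786736 (minus strand, Ccnb1), chr9:70421525-70421804 (minus strand, Ccnb2), chr8:75109259-75109538 (plus strand, Mcm5) and chr1:128359676-128359955 (minus strand, Mcm6).
Cdk1: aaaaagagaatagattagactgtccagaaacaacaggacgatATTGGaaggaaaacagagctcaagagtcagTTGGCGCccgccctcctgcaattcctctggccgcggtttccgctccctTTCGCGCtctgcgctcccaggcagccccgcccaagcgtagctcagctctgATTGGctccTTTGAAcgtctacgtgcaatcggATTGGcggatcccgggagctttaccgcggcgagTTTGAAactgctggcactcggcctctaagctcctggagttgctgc
Ccnb1: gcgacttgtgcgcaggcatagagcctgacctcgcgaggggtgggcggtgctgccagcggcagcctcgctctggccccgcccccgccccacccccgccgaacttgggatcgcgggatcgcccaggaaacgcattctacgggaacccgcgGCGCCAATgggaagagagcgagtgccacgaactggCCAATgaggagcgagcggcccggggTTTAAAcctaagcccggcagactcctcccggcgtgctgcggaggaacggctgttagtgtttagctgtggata
Ccnb2: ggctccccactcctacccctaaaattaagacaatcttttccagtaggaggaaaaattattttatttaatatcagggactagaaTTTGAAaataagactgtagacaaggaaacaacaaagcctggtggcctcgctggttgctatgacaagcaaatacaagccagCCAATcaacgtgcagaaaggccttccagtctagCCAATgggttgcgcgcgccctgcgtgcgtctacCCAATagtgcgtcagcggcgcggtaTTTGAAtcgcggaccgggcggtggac
Mcm5: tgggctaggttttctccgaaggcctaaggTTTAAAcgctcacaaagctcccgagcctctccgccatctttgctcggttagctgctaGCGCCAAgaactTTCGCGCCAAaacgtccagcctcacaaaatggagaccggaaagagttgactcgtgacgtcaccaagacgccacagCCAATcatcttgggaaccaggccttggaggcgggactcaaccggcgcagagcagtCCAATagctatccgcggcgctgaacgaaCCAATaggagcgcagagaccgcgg
Mcm6: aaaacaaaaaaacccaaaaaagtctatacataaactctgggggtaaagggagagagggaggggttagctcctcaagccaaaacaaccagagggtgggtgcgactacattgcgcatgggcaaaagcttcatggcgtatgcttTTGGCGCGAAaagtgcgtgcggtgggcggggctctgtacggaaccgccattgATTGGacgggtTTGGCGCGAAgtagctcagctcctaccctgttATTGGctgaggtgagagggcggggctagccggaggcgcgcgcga
The Ccnb2 window holds 3 CCAAT words, 2 CHR words and no E2F word. In Cdk1, 3 CCAAT words and 2 CHR words stand beside 2 E2F words, and in Ccnb1, 2 CCAAT words and 1 CHR word beside 1 E2F word, so these are 2 of the 3 G2 and M promoters with an E2F word. The Mcm6 window printed here holds 4 E2F words in 2 overlapping pairs, 2 CCAAT words and no CHR word, and Mcm5 holds 3 E2F words, 3 CCAAT words and 1 CHR word. Of the 5, Ccnb2 and Mcm6 thus hold words of 1 class besides CCAAT, and the other 3 hold words of both.

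Some libraries stood apart and bear on what follows. The depth implied by the smallest FPKM steps was 15.1 to 25.9 (in units of 1e6 fragments) per library. Genes listed at 0 made up 34.3% of MCh long a, 33.8% of MCh long c and 28.3% of MCh short 1, against 22.5% to 25.3% elsewhere (the long MCh and OVA libraries are lettered, since their columns name the group alone). MCh long a listed 4 members at 0 and MCh long c 5. Array weights, used in some of the alternative fits, were lowest in MCh long a (0.066), MCh short 4 (0.083), MCh long c (0.088) and MCh short 1 (0.21). In MCh short 4, genes' deviations from their means had a Spearman's rho of -0.649 with transcript length, the lowest of the 22 libraries. The 4 OVA short libraries came next, from -0.48 to -0.398, against -0.029 to 0.276 in PBS short. The surfactant gene Sftpc stood between 4592 and 13050 FPKM in all 22 libraries. PBS short 2 was the highest of its group for 39 of the 41 members, and MCh short 1 for 30. Those same libraries were rich in lymphocyte genes. The B cell gene Ms4a1 (CD20) stood at 35.4 FPKM in PBS short 2 and 35.6 in MCh short 1, against 3.7 to 6.22 in the other 5 short PBS and MCh libraries. The T cell gene Cd3e stood at 4.56 and 9.61 FPKM there, against 1.11 to 1.99 in those 5. Ptcra, a defining gene of thymocytes, was listed at 0 in both. Over the whole thymocyte list, however, the median log2 deviation from the group mean was 0.295 in PBS short 2 and 0.118 in MCh short 1. Over the germinal centre list it was 1.244 and 1.096. The part of lymphocytes in the members' values was not tested, and counts are given below with and without these libraries.

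**Figure D1:**
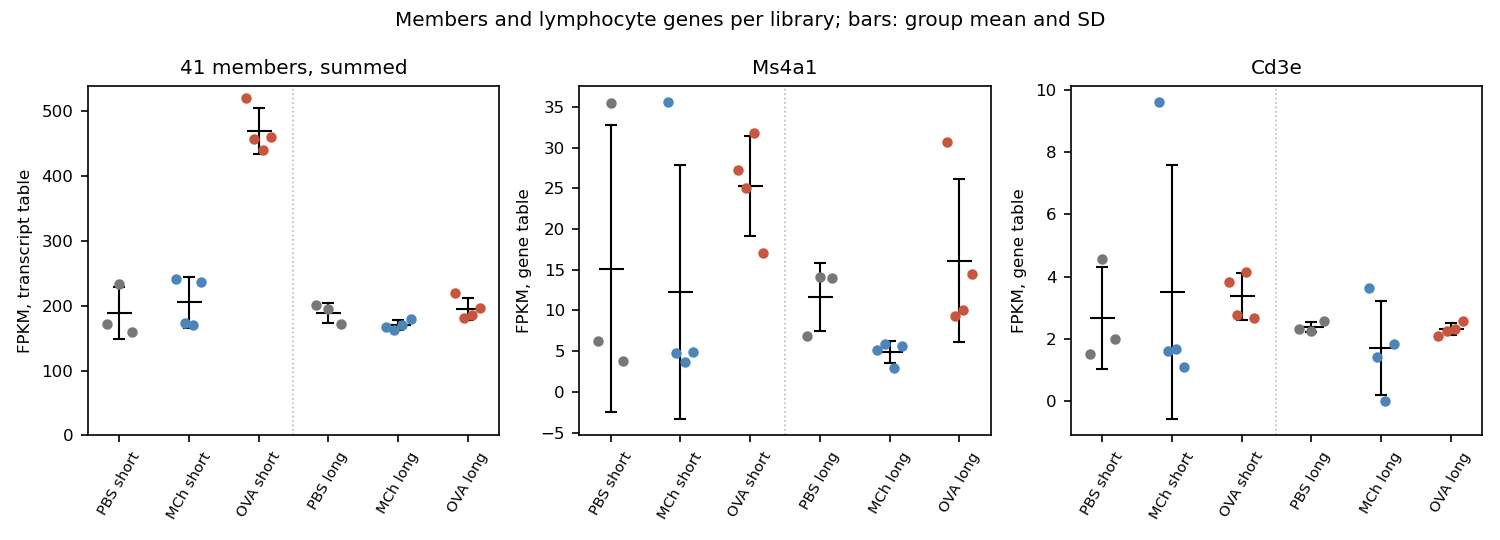
Summed transcript FPKM of the 41 members (left), and FPKM of the B cell gene Ms4a1 and the T cell gene Cd3e (gene table), for each library in the 6 groups; points are libraries and bars the group mean and SD, which may reach below 0 where 1 library is far above the rest. PBS short 2 and MCh short 1 stand highest for Ms4a1 and Cd3e, while the member sum is highest in the 4 OVA short libraries, from 441 to 520.5 FPKM.

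In the short protocol, OVA lungs held more RNA of nearly the whole set. Of 41 members, 39 rose against PBS and none fell (limma on log2(FPKM + 0.5), adjusted p under 0.05), where 12.4% of all tested genes rose and 11.7% fell. The median log2 fold change of the members was 1.53, against -0.06 over all tested genes. In 40 of 41 members every OVA library stood above every PBS library, which held for 23.2% of all tested genes. Summed over the members in the transcript table, which is per length and comparable between genes, the FPKM was 188.5 ± 39.9 in PBS (SD, n = 3) and 469.8 ± 34.9 in OVA (n = 4). Pcna alone made up 69.4 and 134.6 of these means, so such sums weigh the abundant members most. Without PBS short 2 and MCh short 1, the count of members that rose was again 39, where 1783 of 15682 tested genes rose, and the median was 1.78. Removing single libraries gave 29 to 38 members, the lowest without PBS short 3.

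**Figure D2:**
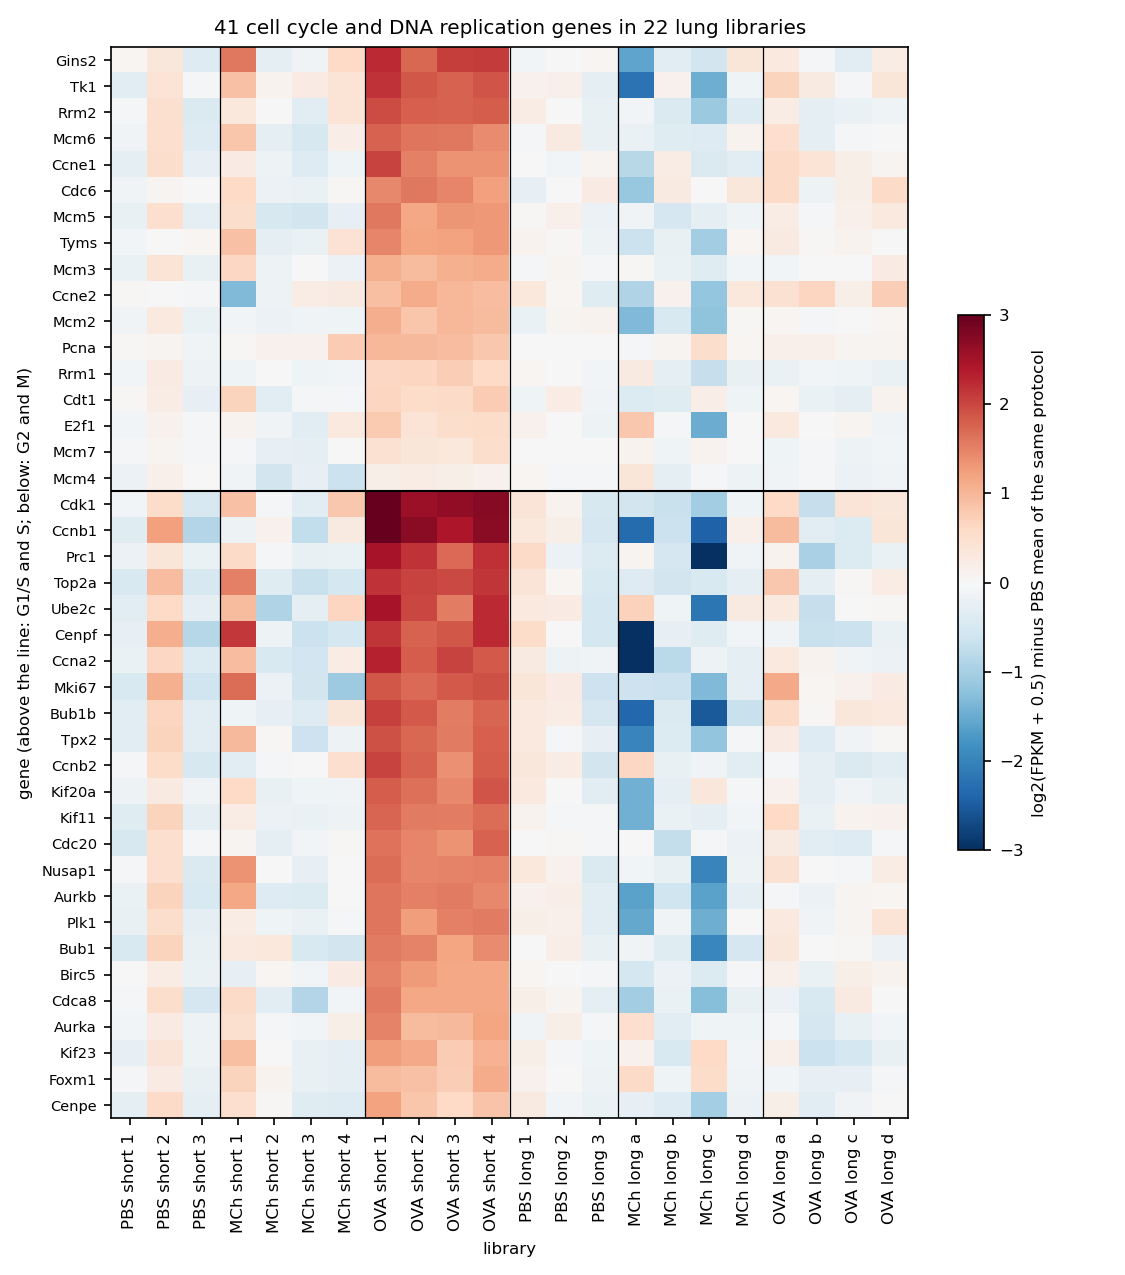
Each cell is log2(FPKM + 0.5) of a gene in a library minus the mean of the PBS libraries of the same protocol, with colours capped at 3 in either direction; genes are ordered by their short OVA fold change within the G1/S and S class (above the line) and the G2 and M class (below it). The 4 OVA short columns are red for all but the weakest genes of the upper class, PBS short 2 and MCh short 1 are pale red, and the dark blue cells of MCh long a and c are mostly genes at or near 0 there.

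Origin licensing and the replicative helicase came first in the order of the cycle. Cdc6 and Cdt1 load the MCM helicase onto origins. Cdc6 stood at 0.885, 1.07 and 1.0 FPKM in the PBS short libraries, 1.74, 0.807, 0.80 and 1.03 in MCh and 3.53, 3.91, 3.62 and 2.97 in OVA. The OVA libraries were all above the others, and the log2 fold change over PBS was 1.43 ± 0.29 (SE, adjusted p = 0.00119). Cdt1 rose less, by a log2 of 0.63 ± 0.21 (adjusted p = 0.0334), from 1.11 ± 0.267 to 1.98 ± 0.176 FPKM (mean ± SD), and this call was lost when any single library except PBS short 2 was left out. The MCM helicase is a ring of 6 subunits, Mcm2 to Mcm7, and its members moved unequally. Mcm5 (chromosome 8, 75109569 to 75128439 on the plus strand, GENCODE on mm10) stood at 5.2, 8.91 and 4.99 FPKM in PBS and 19.4, 14.4, 16.2 and 15.8 in OVA, a log2 of 1.34 ± 0.23 (adjusted p = 0.000317). Mcm2 stood at 2.11, 2.98 and 1.97 in PBS and 5.5, 4.49, 5.17 and 4.98 in OVA, a log2 of 0.97 ± 0.24 (adjusted p = 0.00579). Neither subunit had overlapping groups. Mcm6 and Mcm3 rose by a log2 of 1.59 ± 0.27 and 1.05 ± 0.19, and Mcm7 by 0.42 ± 0.11. Mcm4 did not pass: it stood at 7.72, 9.81 and 8.76 FPKM in PBS and 9.95, 10.2, 9.93 and 9.59 in OVA, and its groups overlapped. Its log2 fold change of 0.18 ± 0.15 (adjusted p = 0.439) was the smallest of the 41, and it passed under none of the alternatives. Gins2, a subunit of the GINS complex that activates the ring, rose the most of the S phase class, from 1.04 ± 0.378 to 5.69 ± 0.888 FPKM (log2 2.03 ± 0.39, adjusted p = 0.00092).

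Genes that supply the fork with nucleotides also rose. Rrm2, the regulated subunit of ribonucleotide reductase, stood at 1.57, 2.52 and 1.09 FPKM in PBS, 2.19, 1.68, 1.24 and 2.38 in MCh and 7.83, 6.97, 6.79 and 7.1 in OVA. Its partner Rrm1, the large subunit, was nearer to its PBS level at 9.21 ± 1.45 and 14.7 ± 0.632 FPKM. Both passed, with log2 fold changes of 1.83 ± 0.25 (adjusted p = 2.61e-05) and 0.66 ± 0.16 (adjusted p = 0.00471). Tk1, thymidine kinase of the salvage pathway, stood at 1.02, 2.06 and 1.36 in PBS and 8.27, 6.58, 6.13 and 6.7 in OVA (log2 1.93 ± 0.40). Tyms, thymidylate synthase of the synthesis pathway, stood at 1.41, 1.54 and 1.6 in PBS and 5.06, 4.06, 4.15 and 4.46 in OVA (log2 1.29 ± 0.25). For both enzymes the OVA libraries lay apart from PBS, with adjusted p of 0.00146 and 0.000968. Pcna, the sliding clamp of DNA polymerase, stood at 9.33, 9.67 and 8.52 in PBS, 9.39, 9.99, 10.1 and 15.8 in MCh and 18.7, 18.4, 17.7 and 16.4 in OVA. It rose by a log2 of 0.92 ± 0.15 (adjusted p = 0.000267), and MCh short 4 lay close to the OVA range. On the transcript scale Pcna was the most abundant member in every group, at 69.4 ± 4.47 FPKM in PBS short and 134.6 ± 7.77 in OVA short.

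**Figure D3:**
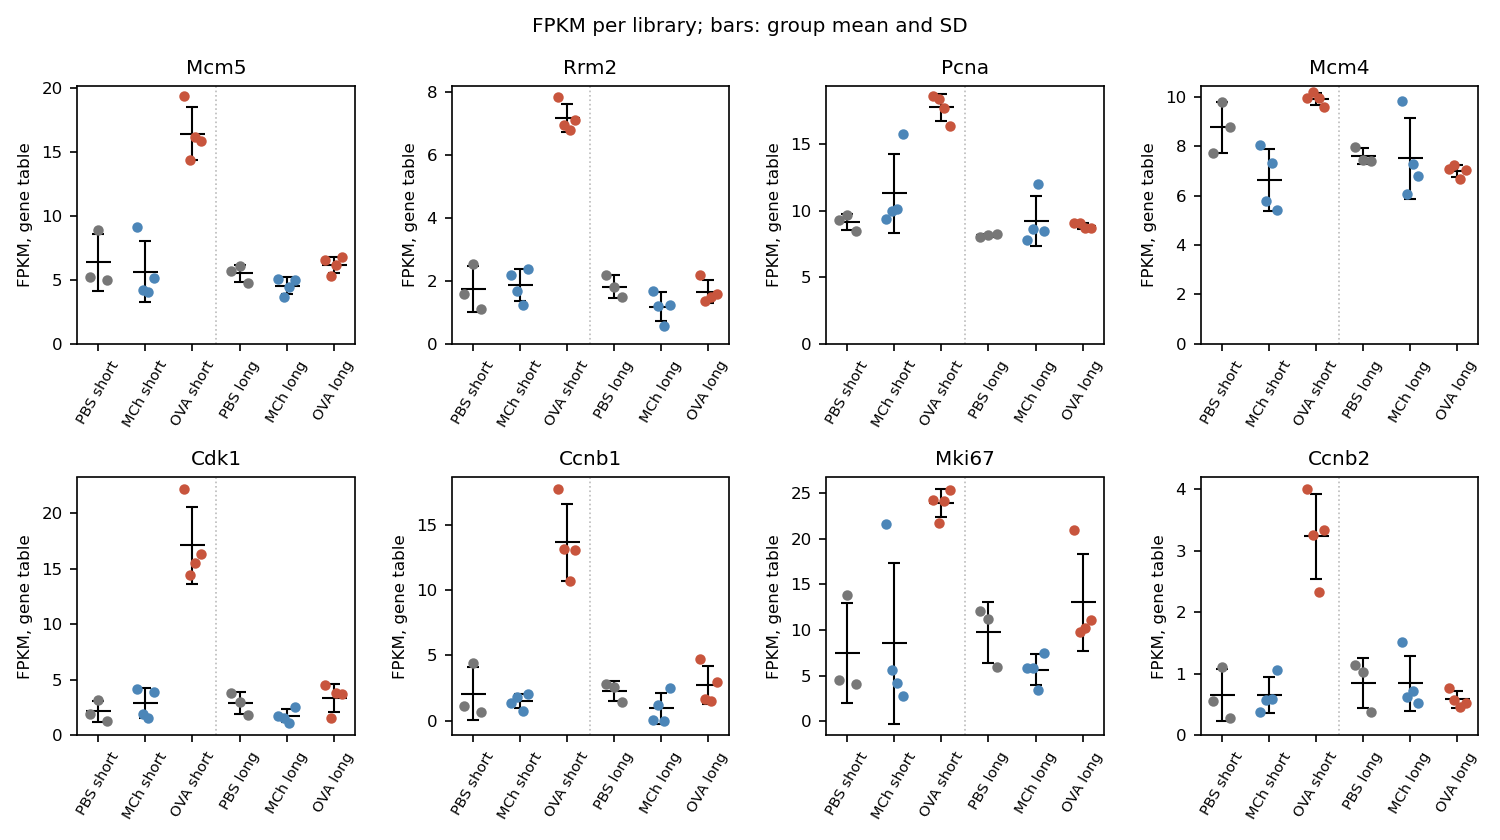
FPKM of 8 members in each library of the 6 groups; points are libraries, bars the group mean and SD, and axes start at 0 except where an SD bar reaches below it. The OVA short points lie above all other groups for Mcm5, Rrm2, Cdk1, Ccnb1 and Ccnb2, MCh short 1 and OVA long a approach them for Mki67, and Mcm4 overlaps PBS short.

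Of the 2 transcription factors in the set, 1 passed. E2f1, an activator of S phase genes, stood at 1.16, 1.43 and 1.19 FPKM in PBS and 2.52, 1.84, 2.01 and 2.06 in OVA. All 4 OVA libraries lay above PBS, but the log2 fold change of 0.56 ± 0.33 did not pass (adjusted p = 0.23). The spread in that fit is shared with MCh long a, at 3.26 FPKM, and MCh long c, at 0.259. With the PBS short and OVA short libraries fitted alone the adjusted p of E2f1 was 0.00636, and without the 4 libraries of lowest weight it was 0.000866. It also passed with array weights, without the 3 libraries with most genes at 0 and on the numbered libraries alone. It did not pass with other pseudocounts, filters or scalings, on transcript sums or with the length trend removed. Leaving out any single PBS short or OVA short library gave an adjusted p of 0.254 to 0.394. Foxm1, the forkhead factor of G2 and M genes, stood at 0.886, 1.18 and 0.705 in PBS and 2.21, 2.08, 1.86 and 2.55 in OVA, with no overlap. It rose by a log2 of 0.92 ± 0.22 (adjusted p = 0.00546).

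Cdk1 and the B cyclin Ccnb1 had the largest fold changes of the set. Cdk1, the kinase that starts mitosis (chromosome 10, 69335146 to 69352938 on the minus strand), stood at 1.92, 3.21 and 1.33 FPKM in PBS, 4.16, 1.96, 1.55 and 3.93 in MCh and 22.2, 14.4, 15.5 and 16.4 in OVA. The lowest OVA library was more than 3 times the highest MCh or PBS one, and the ratio of means to PBS was 7.96. The log2 fold change of 2.78 ± 0.35 (adjusted p = 1.19e-05) was the largest of the 41. Its partner Ccnb1, cyclin B1, stood at 1.14, 4.42 and 0.631 in PBS, 1.37, 1.78, 0.753 and 2.0 in MCh and 17.7, 13.2, 10.7 and 13.1 in OVA. PBS short 2 was far above its fellows, so the ratio of means of 6.62 became 15.5 without that library. The log2 fold change of Ccnb1 was 2.74 ± 0.55 (adjusted p = 0.00124). Ccnb2, cyclin B2, stood at 0.551, 1.11 and 0.281 in PBS and 4.0, 3.25, 2.33 and 3.34 in OVA (log2 1.75 ± 0.28, adjusted p = 0.000161). Ccna2, cyclin A2 of S and G2, stood at 2.7, 5.13 and 2.26 in PBS and 17.6, 12.5, 14.4 and 12.6 in OVA (log2 1.99 ± 0.51, adjusted p = 0.00785). The groups of both cyclins lay apart. The E cyclins, which act at the G1/S border, rose too. Ccne1 stood at 0.326, 0.97 and 0.355 in PBS and 3.62, 2.37, 2.06 and 2.08 in OVA (log2 1.55 ± 0.24, adjusted p = 0.000132). Ccne2 stood at 0.993, 0.944 and 0.926 in PBS and 2.23, 2.65, 2.42 and 2.27 in OVA (log2 0.99 ± 0.35). Its adjusted p of 0.0437 lay close to the threshold, and the call was lost when any single library of the comparison was left out. The FPKM steps imply 62.6 to 75.3 fragments of Ccne2 per PBS short library, against 870.6 to 962.4 of Mcm4.

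Mitotic kinases and the spindle checkpoint rose as a class, 5 of 5 kinase genes. Plk1, which drives centrosome maturation and mitotic entry, stood at 0.798, 1.65 and 0.722 FPKM in PBS and 4.11, 3.09, 3.78 and 3.93 in OVA. Aurka, the kinase of the spindle poles, stood at 0.374, 0.595 and 0.336 in PBS and 2.08, 1.3, 1.32 and 1.61 in OVA. Aurkb, the kinase of the chromosomal passenger complex, stood at 0.67, 1.62 and 0.476 in PBS and 3.59, 3.32, 3.44 and 3.14 in OVA. None of the 3 had overlapping groups, and the log2 fold changes were 1.48 ± 0.32 for Plk1, 1.15 ± 0.20 for Aurka and 1.53 ± 0.36 for Aurkb. The checkpoint kinases Bub1 and Bub1b rose by a log2 of 1.41 ± 0.35 and 1.79 ± 0.41. Birc5 (survivin), a passenger subunit, had the smallest adjusted p of the set (5.99e-06). It stood at 0.20, 0.322 and 0.112 in PBS, 0.0991, 0.239, 0.163 and 0.331 in MCh and 1.48, 1.21, 1.07 and 1.07 in OVA, so OVA was 5.73 times the PBS mean. Its log2 fold change of 1.27 ± 0.15 is small beside that ratio, because the gene table lists Birc5 at 0.084 of its transcript sum and the added 0.5 then weighs more. The other passenger subunit, Cdca8, rose by 1.26 ± 0.32. The genes that end mitosis by protein destruction followed. Cdc20, the activator of the anaphase-promoting complex, stood at 2.35, 5.1 and 3.35 in PBS and 11.7, 10.4, 9.6 and 12.9 in OVA (log2 1.55 ± 0.22, adjusted p = 4.92e-05). Ube2c, its ubiquitin-conjugating enzyme, stood at 1.69, 3.67 and 1.79 in PBS and 14.7, 10.5, 7.52 and 12.4 in OVA (log2 2.06 ± 0.53, adjusted p = 0.00791). All OVA libraries lay above PBS for both.

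The 8 spindle, kinetochore and cytokinesis genes all passed, with log2 fold changes from 0.87 (Cenpe, a kinetochore motor) to 2.13 (Prc1, which bundles the midzone). The motors Kif11, Kif20a and Kif23 rose by 1.63 ± 0.28, 1.7 ± 0.30 and 1.05 ± 0.28, Tpx2 and Nusap1, which nucleate and bind spindle microtubules, by 1.75 ± 0.39 and 1.53 ± 0.40, and the kinetochore protein Cenpf by 2.01 ± 0.69. Cenpf reached 12.1 FPKM in MCh short 1, inside its OVA range of 9.39 to 13.2. Mki67 and Top2a are often used to mark dividing cells. Mki67, the Ki-67 antigen (chromosome 7, 135689784 to 135716361 on the minus strand), stood at 4.52, 13.8 and 4.02 FPKM in PBS, 21.6, 5.63, 4.17 and 2.7 in MCh and 24.3, 21.7, 24.1 and 25.4 in OVA. Top2a, topoisomerase II alpha, stood at 1.88, 5.8 and 1.88 in PBS, 8.89, 2.07, 1.57 and 1.79 in MCh and 14.2, 13, 12.4 and 14 in OVA. PBS short 2 and MCh short 1 were raised for both, and MCh short 1 lay just under the lowest OVA library for Mki67. Their log2 fold changes over PBS were 1.83 ± 0.50 (adjusted p = 0.0113) and 2.07 ± 0.42 (adjusted p = 0.00136). Without PBS short 2 the ratios of means went from 3.21 to 5.59 for Mki67 and from 4.2 to 7.12 for Top2a. The call for Mki67 was lost without PBS short 1 or PBS short 3, and those for Cenpe, Cenpf, Kif23 and Prc1 were lost without either too. Cenpf was also lost without any single OVA short library, Cenpe and Prc1 without OVA short 1, and Nusap1, Ccna2 and Cdca8 without PBS short 3. At pseudocount 0.1 Ccna2, Ccne2, Bub1, Cdca8, Cenpe, Cenpf and Prc1 did not pass, and with no filter Ccne2 and Cenpf did not.

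The median ratio was higher over G2 and M members than over S phase members. Ratios of OVA to PBS means in the short protocol had a median of 2.51 over the 17 G1/S and S members (1.13 to 5.49) and 3.76 over the 24 G2 and M members (2.36 to 7.96). More than 3-fold was reached by 6 of 17 and 21 of 24. Without PBS short 2 the medians were 2.52 and 5.6. Genes are not replicates, so no test is attached to this split. The PBS long level of a member, on the transcript scale, and its short OVA ratio had a Spearman's rho of -0.40 across the 41 genes, which share all their libraries; this is a description. Pcna, Mcm7, Rrm1, Mcm4 and Mcm3, the 5 members with the highest PBS levels, had ratios of 1.94, 1.36, 1.60, 1.13 and 2.10.

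Genes of the same processes outside the set were counted in lists fixed for this description. Of 76 other mitosis genes, 62 rose and none fell (median log2 1.28), among them Anln, a cytokinesis scaffold (log2 1.51 ± 0.20), Sgo2a, a guardian of cohesion (1.69 ± 0.23), the centromere gene Cenpm (1.93 ± 0.26) and the spindle gene Dlgap5 (1.60 ± 0.23). Of 50 other DNA replication genes, 24 rose and none fell (median 0.62), among them Uhrf1 (1.51 ± 0.24), Pola2 of the primase complex (0.96 ± 0.17), Mcm10 (1.59 ± 0.29) and Cdc45 (1.43 ± 0.27). Of 24 genes of the S phase checkpoint and recombination repair, 10 rose and none fell, with Exo1 (0.76 ± 0.11), Brca1 (1.01 ± 0.16) and Rad54l (1.49 ± 0.27) among them. The G1 and S phase regulators were mixed, 8 higher and 1 lower of 22 tested. Myc rose from 0.491 ± 0.181 to 1.34 ± 0.157 FPKM (log2 0.90 ± 0.14), and Cks2, Cks1b and Cdk4 rose by a log2 of 1.42 ± 0.23, 1.90 ± 0.37 and 0.63 ± 0.13. Ccnd1, cyclin D1 of the G1 phase, did not pass (0.04 ± 0.12, adjusted p = 0.839). Of 29 CDK inhibitors and quiescence genes, 2 rose and 4 fell, the latter a share near that of all tested genes. The 2 that rose, named after their values were seen, were Cdkn2d (p19), by 0.81 ± 0.22, and Btg1, by 0.48 ± 0.13. The 4 that fell were Cdkn1b (p27), by 0.63 ± 0.10, Tob1, by 0.63 ± 0.12, Ccng2, by 0.47 ± 0.10, and Cdkn1c (p57), by 0.64 ± 0.15. Cdkn1a (p21), the inhibitor induced by p53, had a log2 fold change of -0.002 ± 0.265 (adjusted p = 0.997). All values are to be read beside the 12.4% and 11.7% of tested genes that rose and fell.

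Replication-dependent histone genes, whose mRNA is made in S phase and has no poly(A) tail, mostly did not pass, in libraries made with a total RNA kit. Of 48 tested, 1 rose (H3c10, log2 0.53 ± 0.14) and 2 fell (H2bc18, by 1.21 ± 0.40, and H4c11, by 0.85 ± 0.29), and the median was -0.01. Their summed transcript FPKM was 204.1 ± 14.2 in PBS short and 175.4 ± 14.1 in OVA short. Copies of these genes are near-identical, so the split of reads between them is uncertain. The list was widened after the file's gene names had been seen, since it first caught few of them.

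Markers of some other cell types moved in the same lungs as the members, and those of others were mixed or did not. In OVA short, 9 of 12 macrophage and monocyte genes rose and 6 of 8 eosinophil genes (1 fell). Of B and plasma cell genes 4 of 12 rose, of T cell genes 3 of 11 and of germinal centre genes 0 of 8. Among all tested genes 12.4% rose and 11.7% fell. In the neutrophil list 1 of 8 rose and in the thymocyte list 0 of 5. Both directions occurred in the erythroid precursor (1 up, 1 down of 8), fibroblast (2 and 2 of 8), alveolar type 2 (2 and 3 of 8) and lung tissue lists (2 and 5 of 12). The summed transcript FPKM of the macrophage list was 229 to 283 in PBS short and 859 to 1208 in OVA short. For the T cell list it was 31.2 to 93.5 and 80.6 to 110.2, and for the B and plasma cell list 173 to 397 and 401 to 629.5. The B cell gene Ms4a1 stood at 17.1 to 31.8 FPKM in OVA short, between the low and the lymphocyte-rich PBS libraries. The endothelial list, of which 5 of 8 genes fell, summed to 1091 to 1398 in PBS short and 899 to 1063 in OVA short. Of 14 housekeeping genes, 10 rose and 1 fell (median 0.60). The part of these cell types in the members' rise was not tested. Folds in OVA short also fell with transcript length, from a median log2 of 0.27 in the shortest of 5 length classes of tested genes to -0.40 in the longest, while the members' medians lay between 1.29 and 1.84 in each class.

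After the long protocol no rise of the set over PBS was detected. None of the 41 members passed in either direction, where 1.18% of all tested genes did, and none reached an unadjusted p under 0.05 (limma). The median log2 fold change was 0.03, with 23 members above 0 and 18 below, and the range ran from -0.41 (Cenpf) to 0.50 (Ccne2). The summed transcript FPKM was 189.4 ± 15.4 in PBS long and 195.2 ± 17.2 in OVA long. Every OVA library was above every PBS library for Pcna and Ccne1, where 9.95% of all tested genes showed this, and below for Mcm4, Mcm7 and Rrm1, where 13.2% did. Cdk1 stood at 3.83, 3.04 and 1.85 FPKM in PBS long and 4.5, 1.54, 3.8 and 3.68 in OVA long (log2 0.16 ± 0.35). Ccnb1 stood at 2.84, 2.54 and 1.39 and 4.7, 1.65, 1.52 and 2.95 (log2 0.15 ± 0.55). The 2 groups overlapped for both. Ccnb2 stood at 1.14, 1.02 and 0.387 and 0.777, 0.576, 0.466 and 0.523 (log2 -0.27 ± 0.28), and Rrm2 at 2.19, 1.79 and 1.47 and 2.19, 1.37, 1.5 and 1.59 (log2 -0.10 ± 0.25). Mcm5 stood at 5.67, 6.09 and 4.75 and 6.52, 5.33, 6.14 and 6.76 (log2 0.16 ± 0.23). None of these 3 separated the groups. Pcna stood at 8.04, 8.19 and 8.26 and 9.09, 9.1, 8.72 and 8.69, a shift of 0.12 ± 0.15 on the log2 scale. Ccne1 stood at 0.417, 0.38 and 0.485 and 0.871, 0.727, 0.54 and 0.487 (log2 0.31 ± 0.24). These are the 2 members whose OVA long libraries all lay above PBS, at levels well under those of OVA short. Mki67 stood at 12.1, 11.2 and 5.94 in PBS long and 21, 9.8, 10.2 and 11.1 in OVA long, where library a alone was near the OVA short range. Top2a followed at 5.77, 4.49 and 2.95 and 7.82, 3.37, 4.41 and 5.03. OVA long a was the highest of its group for 27 of 41 members, and its Ms4a1 (30.7 FPKM) was the highest of the 4 too.

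The other members followed in the long protocol were also without a shift that passed. Tk1 stood at 2.64, 2.7 and 1.84 FPKM in PBS long and 4.02, 2.97, 2.31 and 3.19 in OVA long (log2 0.32 ± 0.40). Birc5 stood at 0.25, 0.222 and 0.184 and 0.294, 0.13, 0.31 and 0.267, Plk1 at 1.55, 1.52 and 0.925 and 1.72, 1.19, 1.41 and 1.91, and Cdc20 at 3.84, 3.95 and 3.74 and 4.75, 2.95, 2.85 and 3.74. Aurka stood at 0.411, 0.608 and 0.441 and 0.442, 0.194, 0.346 and 0.432, and Aurkb at 1.14, 1.23 and 0.715 and 0.954, 0.847, 1.09 and 1.07. Groups overlapped for all 6. None of the other mitosis, replication, repair or G1/S regulator genes rose or fell in the long OVA comparison (0 of 76, 50, 24 and 22). In the same comparison 5 of 12 B and plasma cell genes, 5 of 12 macrophage genes and 1 of 8 eosinophil genes rose. Of all tested genes 1.18% passed there in either direction. The plasma cell gene Jchain reached 653 to 1768 FPKM in OVA long, against 20.7 to 46.6 in PBS long.

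**Figure D4:**
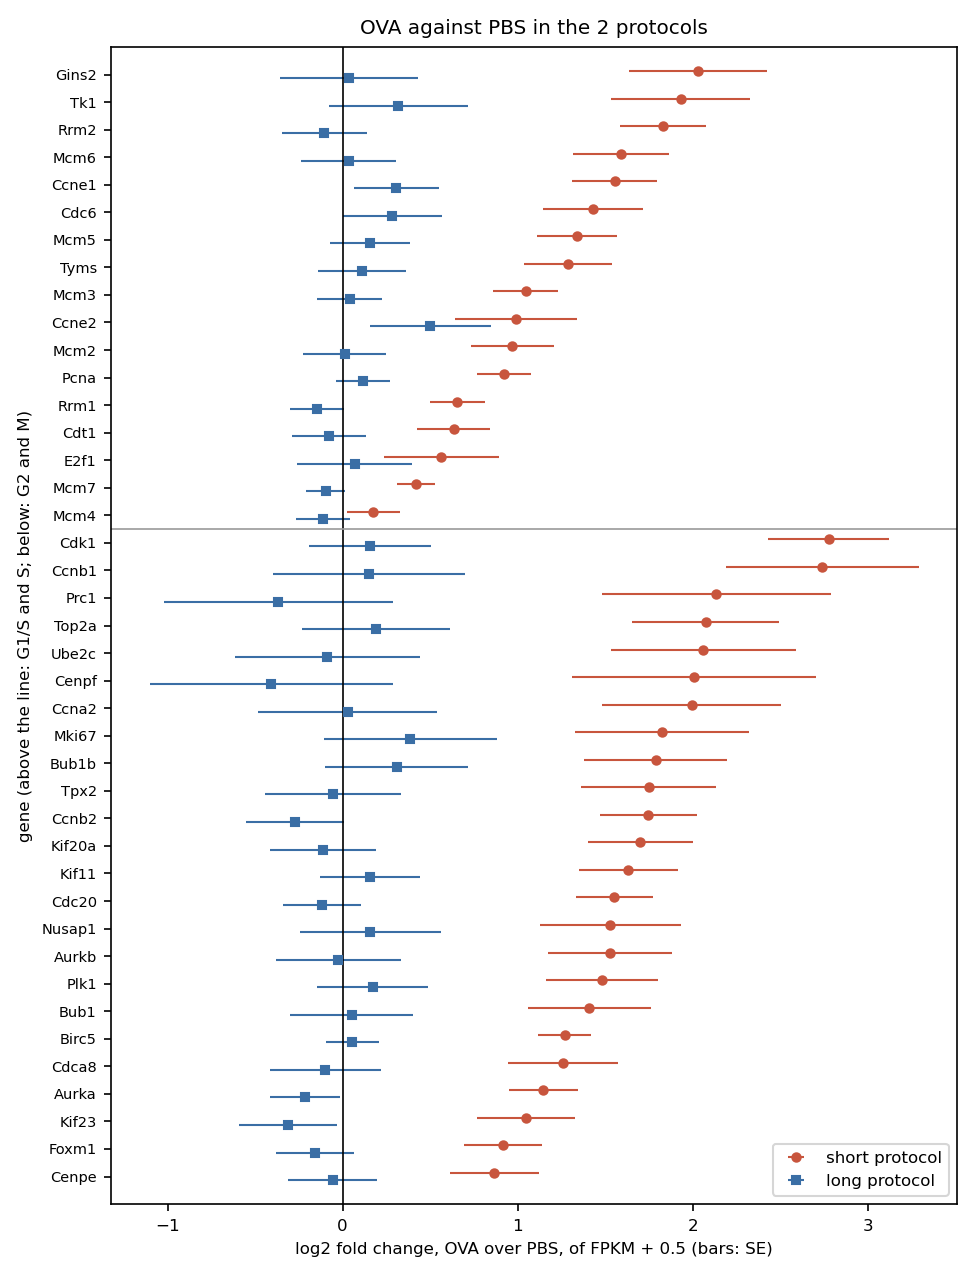
Log2 fold change of OVA over PBS with its SE for each member in the short (red circles) and long (blue squares) protocol, ordered as in the heat map. Short values run from 0.18 (Mcm4) to 2.78 (Cdk1), while the long values lie between -0.41 and 0.50.

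The difference between the protocols was tested directly, as the OVA effect in the long protocol minus that in the short one. All 41 differences were below 0 (median -1.36, against 0.04 over all tested genes), 37 had an unadjusted p under 0.05, and 8 passed after adjustment, where 1.42% of all tested genes were lower. The 8 were Cdk1 (-2.62 ± 0.49, adjusted p = 0.00689), Ccnb2 (-2.02 ± 0.39), Rrm2 (-1.93 ± 0.35), Kif20a (-1.81 ± 0.43), Cdc20 (-1.67 ± 0.31), Mcm6 (-1.56 ± 0.38), Aurka (-1.36 ± 0.28) and Birc5 (-1.21 ± 0.21, adjusted p = 0.00421). The calls for Mcm6 and Kif20a were lost in 12 and 10 of the 14 fits that left out 1 library, and that for Aurka in 2 (without PBS short 3 or PBS long 2). At pseudocount 0.1 Birc5, Kif20a and Mcm6 did not pass, on transcript sums Birc5 and Kif20a did not, with quantile normalization Aurka did not, and with no filter Mcm6 did not. Of the others, Ccnb1 had a difference near that of Cdk1 with a larger error (-2.59 ± 0.78, adjusted p = 0.104), and Mki67 had -1.44 ± 0.70 (adjusted p = 0.338). How many passed moved with the libraries that share the estimate of spread. With the 4 PBS and OVA groups fitted alone 38 members passed, and without the 4 libraries of lowest weight, all MCh, 39 did, where 2116 and 2229 of 15682 tested genes were lower. The count was 23 without PBS short 2 and MCh short 1, where 296 of 15682 tested genes were lower. It was 15 without PBS short 2 alone, and 5 without PBS short 3 or without PBS long 2, with no share of all tested genes given for these fits. Of the other mitosis genes 20 of 76 were lower in this test, and of the other replication genes 1 of 50.

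Methacholine, which narrows the airways with no allergen, gave no call in the set in the short protocol. None of 41 members passed (limma), where 0.00638% of tested genes did (1 gene), and the median log2 fold change was 0.03. Mcm4 alone had an unadjusted p under 0.05, with a log2 of -0.39 ± 0.15 (adjusted p = 0.605). With array weights in the fit 1 member was lower, where 175 of 15682 tested genes were. The MCh short libraries of Ccnb2 stood at 0.381, 0.58, 0.589 and 1.06 FPKM, those of Plk1 at 1.26, 0.879, 0.808 and 0.977 and those of Mcm5 at 9.14, 4.23, 4.01 and 5.12. These lie in or near the PBS short range, except MCh short 1 for Mcm5, which is just above PBS short 2.

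In the long protocol no member passed against PBS either, where 0.0638% of tested genes did, but 37 of 41 had a log2 fold change below 0 (median -0.41, against -0.14 over all tested genes, of which 29.27% were above 0). An unadjusted p under 0.05 was reached by 10, all lower, and by 2551 of 15682 tested genes in either direction. Bub1b had the smallest, at -1.49 ± 0.41 (adjusted p = 0.215). Its FPKM was 3.22, 3.01 and 1.62 in PBS long and 0.0942, 1.76, 0.0289 and 1.4 in MCh long a to d. The FPKM steps imply 3.0 fragments of Bub1b in MCh long a and 1.0 in MCh long c. Ccnb1 stood at 0.0441, 1.22, 0 and 2.47, Aurkb at 0, 0.504, 0 and 0.746 and Plk1 at 0.122, 1.18, 0.154 and 1.29 in the same order. The low values of these genes are those of libraries a and c, which also list the most genes at 0. Other members were high there. Library a was the lowest of its group for 15 of 41 members and the highest for 14, and library c for 17 and 6. Foxm1 stood at 2.05 in a and 1.99 in c, against 1.37, 1.21 and 1.04 in PBS long. The share of the sparseness in the shift was not tested. Without the 4 libraries of lowest weight, which include a and c, the median was -0.21. With quantile normalization it was -0.02. Leaving out MCh long d gave 3 members lower, a count given with no share of all tested genes beside it.

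Set against MCh in place of PBS, OVA gave a like count in the short protocol. These comparisons share the OVA libraries with those above. Of 41 members 38 were higher and none lower, where 9.37% of tested genes were higher, and 38 had every OVA library above every MCh library, where 11.8% did. The median log2 fold change was 1.51. Cdt1 (adjusted p = 0.0501), Cenpf (0.0653) and E2f1 (0.23) did not pass. Mcm4, which did not pass against PBS, was higher than in MCh by 0.56 ± 0.14 (adjusted p = 0.00893), and its MCh short libraries stood at 8.04, 5.76, 7.32 and 5.41 FPKM. Birc5 had the smallest adjusted p again (1.98e-06, log2 1.28 ± 0.14). In the long protocol 2 members were higher than in MCh, Bub1b (1.8 ± 0.38, adjusted p = 0.00689) and Mcm2 (0.75 ± 0.22, adjusted p = 0.0488), where 4.75% of tested genes were. Bub1b rests on an implied 3.0 fragments in MCh long a and 1.0 in MCh long c. In 5 members every OVA long library was above every MCh long library, where 9.6% of tested genes showed this. Without the 3 libraries with most genes at 0 neither passed. The count was 1 when MCh long a, MCh long c or any OVA long library was left out, 7 without MCh long b and 9 without MCh long d. No share of all tested genes is given beside these counts.

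The PBS lungs of the 2 protocols, which differ in age and in the number of challenges, gave no call in the set. None of 41 members passed between PBS long and PBS short, where 0.166% of tested genes did, none had an unadjusted p under 0.05, and the median was 0.17. The summed transcript FPKM was 188.5 ± 39.9 and 189.4 ± 15.4. Cdc6, at 0.885, 1.07 and 1.0 FPKM in PBS short and 0.429, 0.578 and 0.804 in PBS long, stood lower in each PBS long library than in any PBS short one. So did Mcm7, Pcna and Ccne2, 4 of 41 members in all, a share near the 9.16% of all tested genes. The reverse held for 0 of 41 members and for 2971 of 15682 tested genes. Folds were above 0 for 31 of 41 members and for 60.12% of tested genes. With PBS short 2 left out the median was 0.38.

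Several members had more than 1 transcript, 14 of 41, and the shares of these, as the authors' file estimated them, were read per group. For Birc5, NM_009689 held 87.2% of the gene's FPKM in PBS short and 90.9% in OVA short. For Mcm7, NM_008568 held 51.7% and 71.8%. For Kif20a, NM_001166407 held 34.5% and 4.8%, for Ccne2, NM_001037134 held 48.5% and 10.4%, and for Bub1, NM_009772 held 35.3% and 58.3%. For Aurka, NM_001291185 held 77.7% in PBS short, 41.2% in MCh short and 89.8% in OVA short. In the long protocol it held 82.9% in PBS, 0.4% in MCh and 19.4% in OVA. These are ratios of low estimated values, given with no test. For the 27 members with 1 transcript the gene and transcript tables differ only by a constant per gene, so the folds of their means are the same in both.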

How the data were processed

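RNA of 22 mouse lungs was sequenced, 1 library each, from total RNA with a stranded kit per the labels' protocols. The submitters' processing notes name Trim Galore, STAR, DESeq2 and mm10; the sources used here give neither versions nor settings. The authors deposited FPKM values per gene (20938 genes) and per transcript (36844 transcripts), per the file headers. For single-transcript genes the gene value is the transcript value times a constant of that gene, so levels were compared between genes on the transcript table, summed per gene.

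The members and gene lists were chosen with earlier results of these data known, and the histone list was widened after the gene names were seen. FPKM was tested as log2(FPKM + 0.5) with limma 3.58.1 in R 4.3.3 (trended empirical Bayes, two-sided), in 1 fit of all 22 libraries for genes with at least 0.1 FPKM in at least 3 libraries. Benjamini-Hochberg adjustment ran over all 15682 tested genes in each of 8 contrasts, and adjusted p under 0.05 was called. A fold change on this scale understates low genes. Of the lists outside the set, up to 4 genes with the smallest p in the short OVA comparison were named, with Cdkn1a, Ccnd1 and Myc in any case (a few genes are not reported here); 23 members, fixed as a list, are given by library, with Mcm4 and a few others added for their values. Depth was implied from the smallest FPKM steps and no counting interval is given. The columns of the long MCh and OVA libraries give the group alone and are lettered a to d. Alternatives (pseudocount, filter, scaling, array weights, transcript sums, libraries left out, length trend, replicate block, groups fitted alone) are given in the closing section.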

Additional observations from a re-analysis of the deposited data

Results flagged for a closer look

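In 3 of 96 groups of 4 values checked (23 members and the median over members, in the MCh and OVA groups) 1 library lay far from the other 3, where chance gives about 1 in 20. Top2a stood at 8.89 FPKM in MCh short 1, Pcna at 15.8 FPKM in MCh short 4 and Mki67 at 21.0 FPKM in OVA long a. MCh short 1 and OVA long a were also the highest of their groups for Ms4a1 (35.6 and 30.7 FPKM), and MCh short 4 for Sftpc (13050 FPKM). MCh short 4 also had the lowest rho with transcript length (-0.649). The Pcna transcript has 1518 bases, against a median of 2817 over tested genes. The part of these in the members' values was not tested.

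The OVA effect differed between the protocols by the test of the difference itself (limma, long minus short, log2) for Aurka (-1.36), Birc5 (-1.21), Ccnb2 (-2.02), Cdc20 (-1.67), Cdk1 (-2.62), Kif20a (-1.81), Mcm6 (-1.56) and Rrm2 (-1.94). The calls for Mcm6 and Kif20a were lost in 12 and 10 of the 14 fits that left out 1 library and that for Aurka in 2, and those for Birc5 and Kif20a were lost on transcript sums.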

How the results depend on the processing

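No member changed direction among called values under any alternative run. Counts with 1 library left out are given with no share of all tested genes beside them. The short OVA rise over PBS (39 members, median 1.53) kept a count of 29 to 38 when 1 library was left out, and that over MCh (38 members) 35 to 40. The count of members with a smaller OVA effect in the long protocol (8) was 5 at pseudocount 0.1, 13 at pseudocount 1, 19 with quantile normalization, 39 with array weights, 36 without the 3 libraries with most genes at 0, 39 without the 4 of lowest weight, 23 without the 2 lymphocyte-rich libraries (chosen after seeing the data), 38 with its groups fitted alone, and 5 to 15 with 1 library left out. Its median (-1.36) was -1.71 at pseudocount 0.1. Of all 15682 tested genes 223 were lower in that test in the main fit. The number was 138 and 275 at pseudocounts 0.1 and 1, and 267 with quantile normalization. It was 2365 with array weights, 732 without the 3 libraries, 2229 without the 4, 296 without the 2 and 2116 with groups alone. The medians of OVA over MCh short (1.51) were 1.81 and 1.25 at pseudocounts 0.1 and 1. For OVA over MCh long (2 members, median 0.56) the count was 1 without a filter, with median-of-ratios scaling, with quantile normalization or with the length trend removed, 0 without the 3 or the 4 libraries or with groups alone, 6 without the 2, and 1 to 9 with 1 library left out; the median was 0.057 with quantile normalization and 0.18 without the 3 or the 4. Over all tested genes, 745 were higher in OVA long than in MCh long in the main fit. The number was 907 without the 2, 391 without the 3, 657 without the 4 and 215 with groups alone. For MCh against PBS, array weights gave 1 member lower in the short protocol, where 175 of 15682 tested genes were lower. Leave-one-out gave 0 to 3 members lower in the long protocol, and quantile normalization moved that median (-0.41) to -0.016. For PBS long against short, array weights gave 3 members higher and 1 lower, where 1107 and 548 of 15682 tested genes were. Leaving out the 4 gave 1 member lower, where 393 of all tested genes were. The cause was not tested.

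Over all genes, the short OVA count was 1950 higher and 1840 lower, 3195 and 3543 without the 3 libraries, 3765 and 4703 without the 4, 3677 and 4317 with array weights, and 3410 and 4179 with groups alone. Deviations from the group mean were correlated between libraries of the numbered groups. Of 19 same-numbered pairs, 3 had r over 0.1 (from -0.27 to 0.36). The 54 pairs with different numbers ran from -0.327 to 0.405. With 3 or 4 libraries per group such correlations cannot exclude that same-numbered libraries were paired. With the replicate block on the 14 numbered libraries 38 members rose over PBS and 40 over MCh in the short protocol, against 40 and 41 without the block. Of 15682 tested genes, 2004 and 1794 rose with the block, and 2462 and 1882 without it. By the FPKM steps, MCh long c rests on 4.8 fragments for Cenpe and MCh long a on 4.3 for Ccne2. Lower still, Bub1b rests on 3.0 fragments in MCh long a and 1.0 in MCh long c, and Ccnb1 on 1.1 in MCh long a. Such low numbers limit these values.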
